A study of Mus musculus with 2 samples.

Results

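Genes of sterol synthesis, of the sterol-sensing SREBP factors and of the LXR receptors with their lipid targets were described in sorted small peritoneal macrophages of endotoxemic mice. The set is a named list of 43 genes, each matched by symbol to a single gene ID among the 55487 IDs of the deposited count table. The first group, LPS+LCC-12, was 1 library from 66967 small peritoneal macrophages pooled from 8 male SWISS mice, an outbred stock, aged 5 weeks. These mice were injected into the peritoneum with 20 mg/kg lipopolysaccharide (LPS) of Escherichia coli O55:B5, a bacterial cell wall component that causes endotoxemia, and 6 h later with 0.3 mg/kg LCC-12, known as a compound that targets mitochondrial copper. The second group, LPS, was 1 library from 102283 such cells pooled from 7 mice of the same kind that received the LPS without LCC-12. Every mouse also had 30 mL/kg of subcutaneous saline at 6 h and was killed at 22 h, both counted from the LPS injection, so the comparison is between 2 treated groups and holds no unchallenged mice. With 1 pooled library per group there was no replicate and no test, and every difference below is between these 2 libraries only.

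Cells make cholesterol from acetyl-CoA through mevalonate, squalene and lanosterol. When membranes of the endoplasmic reticulum hold little sterol, the escort protein Scap carries the SREBP precursors to the Golgi apparatus, where they are cut to active transcription factors that turn on sterol and fatty acid synthesis, and Insig1 holds them back when sterol is plentiful. The LXR receptors are turned on by oxysterols and by late precursors of cholesterol, and their targets move cholesterol out of macrophages and remodel fatty acids. Macrophages take up much lipid from lipoproteins and dead cells, and store the excess as cholesteryl esters and triglycerides in droplets.

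The DNA upstream of the start sites of 33 of the 43 genes was found in the RefSeq table of build GRCm38.p6, and the 250 bases before each start were searched on both strands. The searched letters were a sterol regulatory element, TCACNCCAC, the direct repeat of the type that LXR binds together with RXR, GGTNA repeated in the same direction with 5 bases between, and CCAAT, the box read by NF-Y, a known partner of SREBP. These exact letters of the sterol regulatory element were present in 1 of the 33, Hmgcs1, and in 1.23% of 27025 genes with a promoter in the table. Elements that differ from the searched letters, or that lie outside the 250 bases, were not looked for, so a gene without a match may still carry an element. The LXR-type repeat was present in 3, Abca1, Srebf1 and Fasn, and in 0.707% of all genes. CCAAT was present in 24 of the 33, among them 14 of the 15 sterol synthesis enzymes with a promoter in the table, and in 37.5% of all genes, or 40.6% of the 9369 of them that passed the count minimum given below. The 4 promoters with a sterol or LXR-type match are shown because they carry the letters by which the SREBP and LXR branches are known, 5′ to 3′ along each gene's strand and ending just before its start, with matches in capitals. In Fasn 2 of the CCAAT matches lie on opposite strands and overlap. These matches describe letters, and binding was not measured.
Hmgcs1 (chr13:119690101-119690350, plus strand): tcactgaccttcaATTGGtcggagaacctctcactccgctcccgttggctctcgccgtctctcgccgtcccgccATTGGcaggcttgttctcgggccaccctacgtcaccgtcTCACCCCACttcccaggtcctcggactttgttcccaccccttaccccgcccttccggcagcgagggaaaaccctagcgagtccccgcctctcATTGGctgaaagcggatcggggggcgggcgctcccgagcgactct
Abca1 (chr4:53159896-53160145, minus strand): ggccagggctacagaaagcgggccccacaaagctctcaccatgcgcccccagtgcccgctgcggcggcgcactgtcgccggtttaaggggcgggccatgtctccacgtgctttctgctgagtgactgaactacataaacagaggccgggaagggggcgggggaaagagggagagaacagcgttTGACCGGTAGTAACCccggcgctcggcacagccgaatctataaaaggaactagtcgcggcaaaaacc
Srebf1 (chr11:60210472-60210721, minus strand): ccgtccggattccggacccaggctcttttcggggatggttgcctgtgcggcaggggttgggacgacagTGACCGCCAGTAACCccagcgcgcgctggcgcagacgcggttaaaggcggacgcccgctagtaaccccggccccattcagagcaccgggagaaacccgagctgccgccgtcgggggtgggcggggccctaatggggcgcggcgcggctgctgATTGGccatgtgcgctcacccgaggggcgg
Fasn (chr11:120824548-120824797, minus strand): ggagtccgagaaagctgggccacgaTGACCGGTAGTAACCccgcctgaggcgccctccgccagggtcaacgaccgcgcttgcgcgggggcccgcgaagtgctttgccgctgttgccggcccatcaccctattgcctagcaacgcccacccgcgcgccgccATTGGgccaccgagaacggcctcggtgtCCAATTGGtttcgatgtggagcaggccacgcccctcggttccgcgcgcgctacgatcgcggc
Abca1 and Fasn hold the repeat with the same letters, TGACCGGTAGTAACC as read on the gene's strand, at 67 and 225 bases before their starts. Srebf1 holds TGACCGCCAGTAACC at 182 bases before the start shown. The capitals in Hmgcs1 are 3 reverse CCAAT boxes and, at 137 bases before the start, the sterol element TCACCCCAC.

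The libraries held 47721888 counts with LPS+LCC-12 and 50618409 with LPS. Counts were scaled over the whole table with TMM, a normalization that compares most genes between libraries, and a log2 ratio is LPS+LCC-12 over LPS. Each ratio is given with its exact 95% Clopper-Pearson interval from the split of the counts, which covers counting error only and not the difference between pools of mice. A gene was read as higher or lower at a difference of 2-fold or more, provided that its larger count was 50 or more. Marker lists of cell types were set beside the label. All 7 general macrophage markers were present and within 2-fold. Their summed level was 8828 CPM (counts per 1000000 scaled counts) in the LPS+LCC-12 library and 7361 CPM in the LPS library. Of these sums Lyz2 alone had 4508 CPM with LPS+LCC-12 and 3049 CPM with LPS. Such sums do not give the share of a cell type among the sorted cells. Other cell markers moved with the groups. For comparison, 4.01% of all genes past the count minimum were higher and 6.65% lower. Of 11 markers of large peritoneal macrophages 7 were higher, with summed levels of 958 CPM in the LPS+LCC-12 library and 408 CPM in the LPS library. Of 10 markers of small peritoneal macrophages 8 were higher, at 1578 CPM with LPS+LCC-12 and 912 CPM with LPS. Of 11 neutrophil markers 8 were lower, at 3514 CPM with LPS+LCC-12 and 9298 CPM with LPS, and of 8 monocyte markers 5 were lower, at 3677 CPM with LPS+LCC-12 and 5850 CPM with LPS. B cell markers summed to 186 CPM with LPS+LCC-12 and 161 CPM with LPS, and the T cell, mast cell, mesothelial, fibroblast and dendritic cell lists to at most 15.2 CPM in either library. The fibroblast marker Lum was at 0 in both libraries, and Pdgfra, Wt1 and Cd209a were at 0 with LPS+LCC-12 and Clec9a with LPS. The part of these shifts in the values below was not tested, and in pooled cells fewer cells of a type and less RNA per cell cannot be told apart.

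Most sterol and lipid genes of the list had log2 ratios above 0 but stayed within 2-fold. Of the 42 members whose larger count was at least 50, 5 were at least 2-fold higher, namely Lpl, Cyp51, Fads1, Scd1 and Sqle, whereas 4.01% of all 13482 genes past the same minimum were. None was at least 2-fold lower, against 6.65% of all genes. The log2 ratio was above 0 for 35 of the 42, against 52.4% of all genes, and below 0 for 7, against 47.6%. The counting interval lay wholly above 0 for 26 members, against 36.5% of all genes, and wholly below 0 for 4, against 32.9%. The median log2 ratio of the members was 0.34, and that of all genes 0.02. Among protein-coding genes alone, 3.81% were at least 2-fold higher and 4.46% lower, and the median was 0.05. The interval lay wholly above 0 for 4478 of these 11220 genes and wholly below 0 for 3497. Whether an interval clears 0 also depends on how many counts a gene has, and genes were not matched for that. At a limit of 1.5-fold 11 members were higher, against 9.67% of all genes. The member left out by the minimum was Fads2, and Fdps passed it only through the LPS+LCC-12 library.

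The 5 members past 2-fold differed in how far they passed it. Lpl was the 1 member whose whole interval lay beyond 2-fold, and the intervals of Cyp51, Fads1, Scd1 and Sqle reached below it, that of Cyp51 barely, with a lower bound of 0.998. Sqle, with a log2 ratio of 1.01, and Scd1, with 1.04, were just inside the limit, and Dhcr7, with 0.80, and Acaca, with 0.76, just outside. Sqle dropped below the limit when libraries were scaled by the DESeq2 median of ratios, by the upper quartile or by the macrophage markers. The last of these subtracted the median log2 ratio of the 7 general macrophage markers, 0.03. The summed level of those markers had a larger log2 ratio, 0.26, which was not used for scaling. Together the 43 genes held 0.348% of all counts in the LPS+LCC-12 library (exact binomial 95% interval 0.347 to 0.350) and 0.317% in the LPS library (0.316 to 0.319). The 18 sterol synthesis enzymes held 0.0270% of the counts with LPS+LCC-12 (0.0266 to 0.0275) and 0.0201% with LPS (0.0197 to 0.0205).

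**Figure D1:**
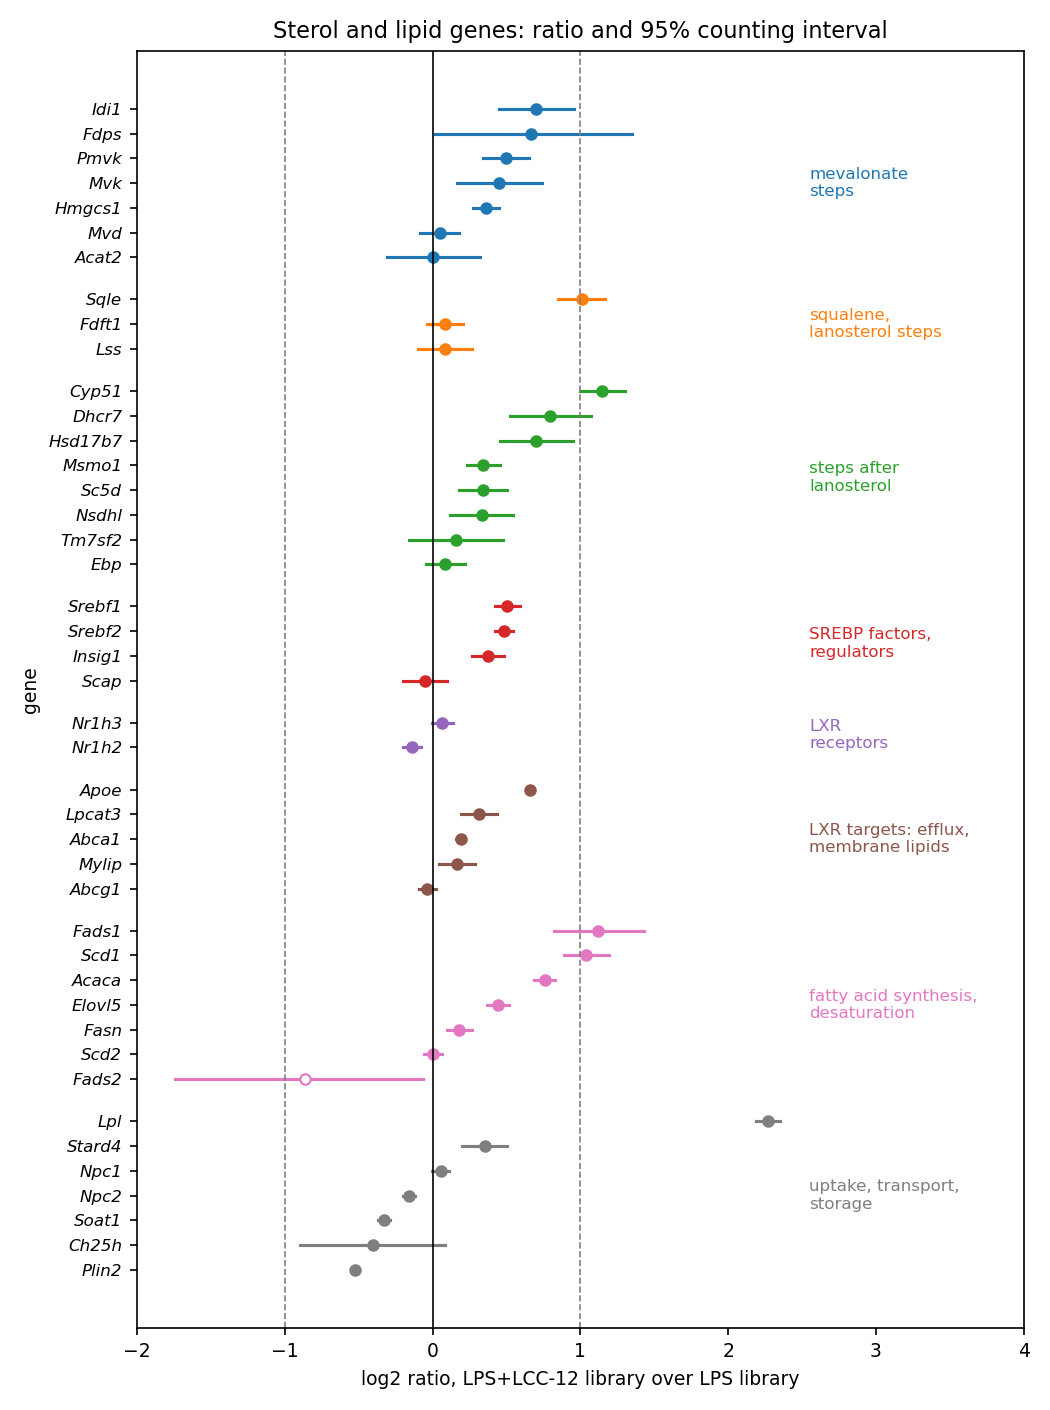
Log2 ratio of LPS+LCC-12 over LPS (x axis) for each of the 43 genes (y axis), grouped by role, with bars for the 95% counting interval, dashed lines at 2-fold and an open point for Fads2, which has fewer than 50 counts. Lpl stands at 2.27, Cyp51, Fads1, Scd1 and Sqle lie just above 1, and Plin2, Soat1 and Npc2 lie below 0.

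Levels per length differed far more between members than between the libraries. The unit is scaled CPM per kilobase of merged exons. Apoe and Plin2 had the highest levels, and they changed places. Apoe, the apolipoprotein that macrophages secrete and that accepts cholesterol, had 291 in the LPS+LCC-12 library and 185 in the LPS library. Plin2, a coat protein of lipid droplets, had 193 in the LPS+LCC-12 library and 277 in the LPS library. Their levels were set against each other without any scaling as a share of the counts of the pair, of which Apoe held 47.9% (47.5 to 48.3) with LPS+LCC-12 and 28.9% (28.5 to 29.2) with LPS. The next members were Npc2, with 36.2 in the LPS+LCC-12 library and 40.4 in the LPS library, and Abca1, with 35.6 in the LPS+LCC-12 library and 31.2 in the LPS library. Fads2 and Fdps had the lowest levels, at 0.125 and 0.251 with LPS+LCC-12 and 0.231 and 0.157 with LPS.

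**Figure D2:**
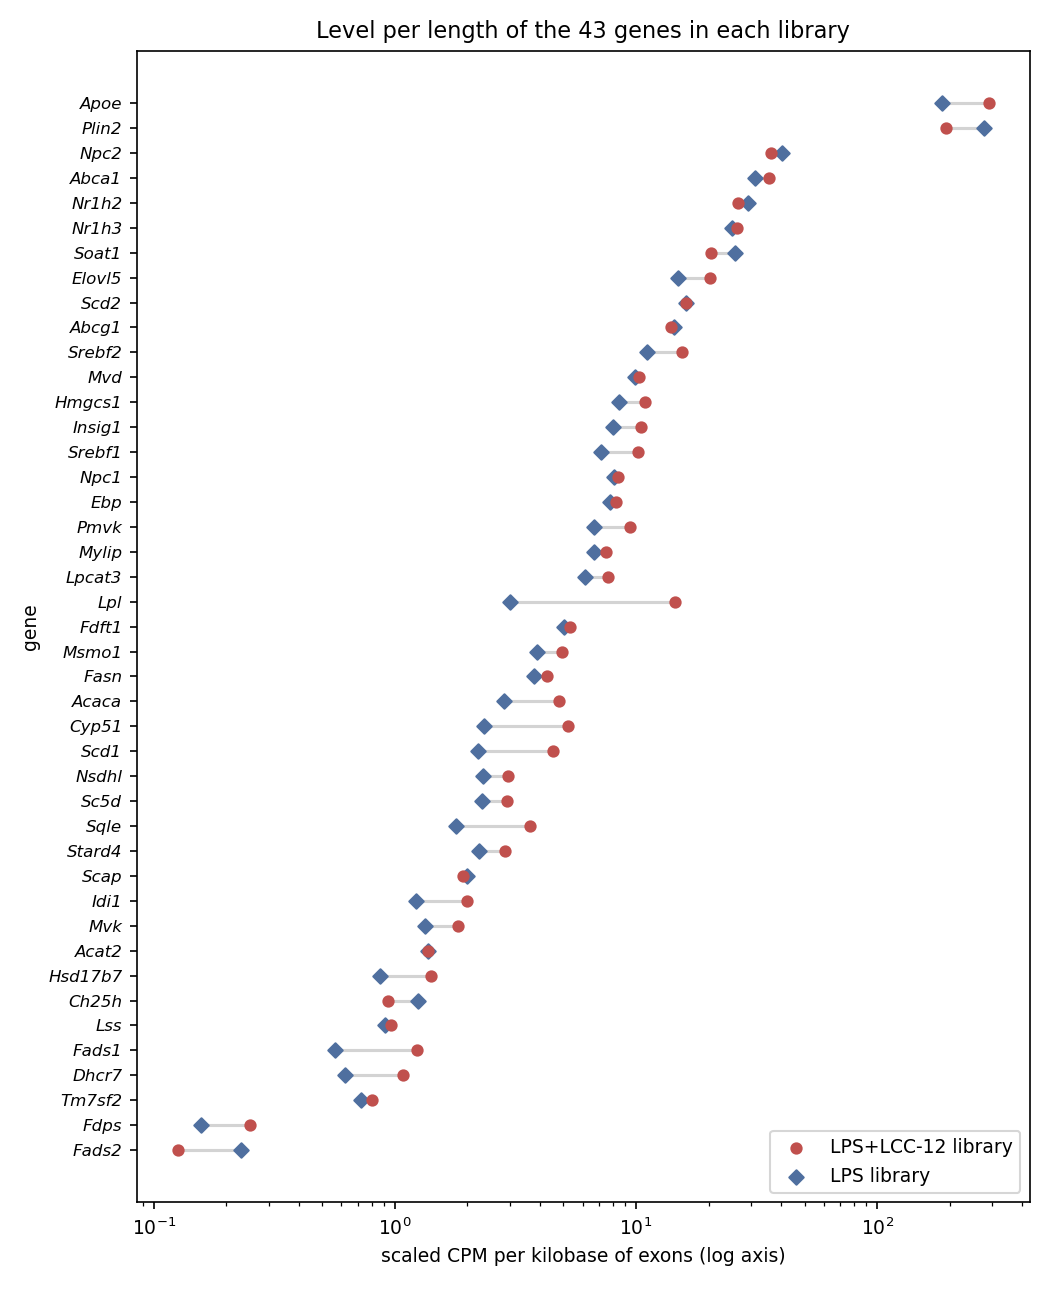
Level per length of the 43 genes (y axis, ordered by their geometric mean) on a log axis of scaled CPM per kilobase of exons, with circles for the LPS+LCC-12 library and diamonds for the LPS library. Apoe and Plin2 stand apart at the top with the circle on the right for Apoe and on the left for Plin2, and Lpl, 4.82-fold higher, has the widest gap.

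All 18 enzymes of sterol synthesis had log2 ratios above 0, against 52.4% of all genes, from 0.00 for Acat2 to 1.15 for Cyp51. Their median was 0.35. The ratio of Acat2 was below 0, leaving 17 of 18 above it, when libraries were scaled by the DESeq2 median of ratios, by the upper quartile or by the macrophage markers. Scaling by the log2 ratio of the summed macrophage markers, 0.26, was not run, and Mvd, Fdft1, Lss, Ebp and Tm7sf2 also had ratios below that value. The interval lay wholly above 0 for 12 of the 18 enzymes, against 36.5% of all genes. It held 0 for the other 6, which were Acat2, Mvd, Fdft1, Lss, Tm7sf2 and Ebp. Among the 12 is Fdps, which passed the count minimum only through the LPS+LCC-12 library. With a minimum of 200 counts, which leaves out Fdps, Acat2 and Tm7sf2, 15 enzymes lay above 0 and the median was 0.36. Summed over the 18, the level was 267 CPM with LPS+LCC-12 and 203 CPM with LPS, a log2 ratio of 0.39. Along the chain of reactions, enzymes with near equal counts in the libraries stood beside Sqle and Cyp51.

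Of the 7 genes that lead from acetyl-CoA to farnesyl diphosphate, none passed 2-fold, and the median log2 ratio was 0.45. Hmgcs1, which makes HMG-CoA and had the most counts of the 18 enzymes, had 2426 counts in the LPS+LCC-12 library and 1951 in the LPS library, a log2 ratio of 0.36 (0.27 to 0.45). Idi1, the isomerase of isopentenyl diphosphate, had 339 counts with LPS+LCC-12 and 215 with LPS, a log2 ratio of 0.70 (0.45 to 0.96). Pmvk and Mvk, the kinases of phosphomevalonate and mevalonate, had log2 ratios of 0.50 (0.34 to 0.66) and 0.45 (0.17 to 0.74). In contrast, Acat2, the thiolase of the first step, had 169 counts with LPS+LCC-12 and 174 with LPS, and Mvd, the decarboxylase that forms isopentenyl diphosphate, had 925 with LPS+LCC-12 and 923 with LPS. Their log2 ratios of 0.00 (-0.31 to 0.32) and 0.05 (-0.08 to 0.18) were within counting error of 0. Fdps, farnesyl diphosphate synthase, had 51 counts with LPS+LCC-12 and 33 with LPS, and its log2 ratio of 0.67 (0.01 to 1.35) is the least precise of the 18. The exons of Fdps share 1124 bases with Gm43738 on the same strand, which was at 0 in both libraries, and Acat3, a close paralog of Acat2, had 41 counts with LPS+LCC-12 and 50 with LPS, so the counts of Fdps and Acat2 are uncertain.

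Of the 3 enzymes that turn farnesyl diphosphate into lanosterol, 1 stood apart. Sqle, squalene epoxidase, a control point of the pathway (chr15:59315077-59331192, plus strand, mm10), had 971 counts in the LPS+LCC-12 library and 498 in the LPS library. Its log2 ratio was 1.01 (0.85 to 1.17), or 2.01-fold higher. The enzymes on either side of it in the chain, Fdft1, squalene synthase, and Lss, lanosterol synthase, had log2 ratios of 0.09 (-0.04 to 0.21) and 0.08 (-0.10 to 0.27). Fdft1 had 1086 counts with LPS+LCC-12 and 1057 with LPS, and Lss had 505 with LPS+LCC-12 and 492 with LPS. The exons of Fdft1 share 774 bases, or 18.3% of their length, with Ctsb on the opposite strand, which had 63642 counts with LPS+LCC-12 and 66766 with LPS. The use of strand in counting is not given in the sources used here, so the Fdft1 value is uncertain.

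The 8 enzymes after lanosterol had a median log2 ratio of 0.34 and all lay above 0, against 52.4% of all genes. Cyp51, lanosterol demethylase (chr5:4081145-4104746, minus strand, mm10), had 1111 counts in the LPS+LCC-12 library and 517 in the LPS library, 2.22-fold higher with a log2 ratio of 1.15 (0.998 to 1.303). Its share of the counts of Cyp51 and Lss, the enzyme just before it, was 68.8% (66.4 to 71.0) with LPS+LCC-12 and 51.2% (48.1 to 54.4) with LPS. Cyp51 shares 166 exon bases, 3.76% of its length, with Akap9 on the opposite strand, which had 8236 counts with LPS+LCC-12 and 8034 with LPS. Dhcr7, the reductase that forms cholesterol from its direct precursor, had 303 counts with LPS+LCC-12 and 180 with LPS, a log2 ratio of 0.80 (0.53 to 1.07). Hsd17b7, a ketosteroid reductase, had 350 counts with LPS+LCC-12 and 222 with LPS, a log2 ratio of 0.70 (0.46 to 0.95). Msmo1, a sterol methyl oxidase, Sc5d, a sterol desaturase, and Nsdhl, a decarboxylating sterol dehydrogenase, had log2 ratios of 0.34, 0.34 and 0.33. The smallest ratios were those of Ebp, a sterol isomerase, with 923 counts with LPS+LCC-12 and 897 with LPS (0.09, -0.05 to 0.22), and Tm7sf2, a sterol reductase, with 172 with LPS+LCC-12 and 159 with LPS (0.16, -0.16 to 0.48). Tm7sf2 is uncertain too, since 12.1% of its exon length is shared with Vps51 on the same strand, with 1182 counts with LPS+LCC-12 and 1033 with LPS.

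**Figure D3:**
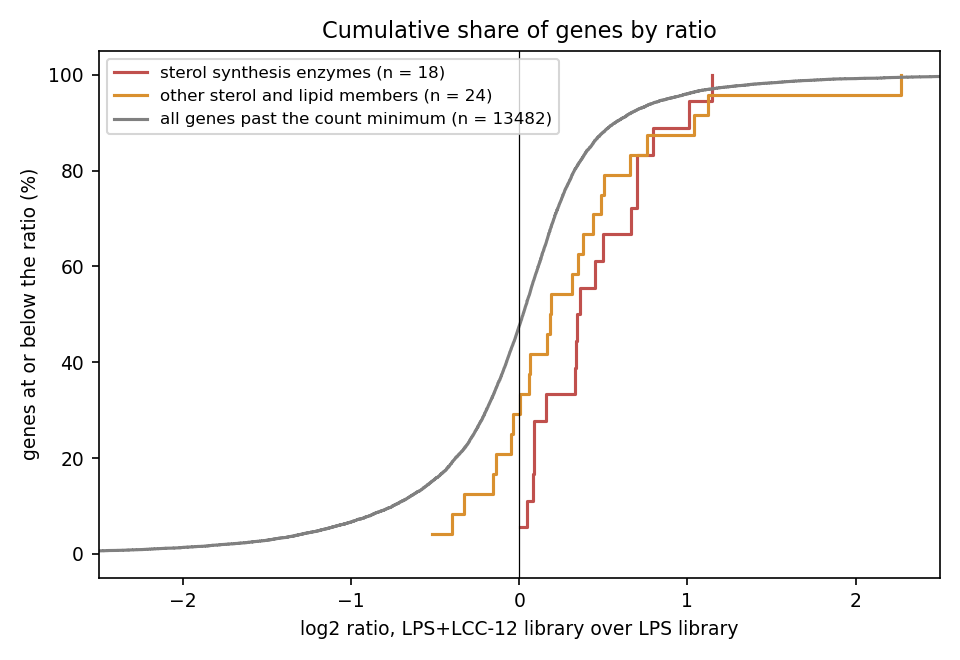
Share of genes at or below each log2 ratio of LPS+LCC-12 over LPS, for the 18 sterol synthesis enzymes, the other 24 members past the count minimum and all 13482 genes past it. The line of the enzymes starts at 0.00 and has its median at 0.35, and the line of all genes crosses its median at 0.02.

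Both SREBP genes had log2 ratios above 0 and within 2-fold, and the escort gene Scap was near equal. Srebf2, the factor known mainly for sterol genes, had 5383 counts in the LPS+LCC-12 library and 3972 in the LPS library, a log2 ratio of 0.48 (0.43 to 0.54). Srebf1, known mainly for fatty acid genes and itself an LXR target, had 2778 counts with LPS+LCC-12 and 2020 with LPS, a log2 ratio of 0.51 (0.42 to 0.59). Srebf1 held 34.0% of the counts of the pair with LPS+LCC-12 (33.0 to 35.1) and 33.7% with LPS (32.5 to 34.9), a difference within counting error. Insig1, the retention protein and a known SREBP target, had 1566 counts with LPS+LCC-12 and 1245 with LPS, a log2 ratio of 0.38 (0.27 to 0.49). Scap had 690 counts with LPS+LCC-12 and 738 with LPS, and the interval of its log2 ratio of -0.05 (-0.20 to 0.10), which turned to 0.01 when the scaling totals left out mitochondrial and the most abundant genes, held 0. These are transcript counts, and the cutting of the SREBP proteins was not measured.

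The LXR receptor genes differed little. Nr1h3, which encodes LXR alpha, the form abundant in macrophages and liver, had 3199 counts in the LPS+LCC-12 library and 3153 in the LPS library, a log2 ratio of 0.07 (-0.00 to 0.14). Nr1h2, which encodes the widely present LXR beta, had 4279 counts with LPS+LCC-12 and 4864 with LPS, a log2 ratio of -0.14 (-0.20 to -0.08). Per length the 2 receptor genes were nearly level, at 26.3 for Nr1h3 and 26.4 for Nr1h2 with LPS+LCC-12, and 25.1 and 29.0 with LPS.

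The 5 LXR targets of efflux and membrane lipids were within 2-fold, with a median log2 ratio of 0.19. Apoe had 30127 counts in the LPS+LCC-12 library and 19734 in the LPS library, a log2 ratio of 0.66 (0.63 to 0.68). Lpcat3, an acyltransferase that places polyunsaturated fatty acids in phospholipids, had a log2 ratio of 0.32 (0.19 to 0.44). Of its exon length 10.2% is shared with Emg1 on the opposite strand, so its value is uncertain. Emg1 had 1439 counts with LPS+LCC-12 and 1619 with LPS. Abca1, which loads cholesterol onto apolipoproteins and carries the LXR-type repeat printed above, had 17853 counts with LPS+LCC-12 and 16164 with LPS, a log2 ratio of 0.19 (0.16 to 0.22). Mylip, a ubiquitin ligase that lowers lipoprotein receptors, had 0.16 (0.04 to 0.28). Abcg1, the partner transporter that passes cholesterol to lipoproteins, had 4935 counts with LPS+LCC-12 and 5222 with LPS, a log2 ratio of -0.04 (-0.09 to 0.02) that changed sign under both scalings by totals. The efflux transporters and the secreted apolipoprotein thus had ratios from -0.04 to 0.66.

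Genes of fatty acid synthesis and desaturation had a median log2 ratio of 0.60 over the 6 past the count minimum. Of these 6, 2 were at least 2-fold higher, against 4.01% of all genes. Scd1, a desaturase that makes oleic acid and a target of both SREBP and LXR (chr19:44394455-44407879, minus strand, mm10), had 1075 counts in the LPS+LCC-12 library and 540 in the LPS library, 2.05-fold higher (log2 ratio 1.04, 0.89 to 1.19). Its paralog Scd2 had 4255 counts with LPS+LCC-12 and 4387 with LPS, a log2 ratio of 0.00 (-0.06 to 0.06) that lay on either side of 0 by scaling. Scd1 thus held 20.2% of the counts of the pair with LPS+LCC-12 (19.1 to 21.3) and 11.0% with LPS (10.1 to 11.9), a comparison that needs no scaling. How reads shared by the 2 paralogs were counted is not given in the sources used here.

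Fads1, which desaturates polyunsaturated fatty acids (chr19:10182888-10196877, plus strand, mm10), had 287 counts in the LPS+LCC-12 library and 136 in the LPS library, 2.17-fold higher (log2 ratio 1.12, 0.82 to 1.43). Its neighbour in the pathway, Fads2, had 20 counts with LPS+LCC-12 and 38 with LPS, a log2 ratio of -0.86 (-1.74 to -0.06) on counts too few to enter the lists. Acaca, acetyl-CoA carboxylase, which commits acetyl-CoA to fatty acids, had 3967 counts with LPS+LCC-12 and 2422 with LPS, a log2 ratio of 0.76 (0.68 to 0.83). Fasn, the fatty acid synthase that uses its product, had 2265 counts with LPS+LCC-12 and 2061 with LPS, a log2 ratio of 0.18 (0.10 to 0.27). The elongase gene Elovl5 had a log2 ratio of 0.44 (0.37 to 0.52).

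Genes of lipid uptake, transport and storage split most widely, from -0.52 for Plin2 to 2.27 for Lpl, with a median of -0.16. That median was -0.05 with a minimum of 200 counts, which leaves out Ch25h, and -0.10 when the scaling totals left out mitochondrial and the most abundant genes, and the mean of the 7 genes was 0.18. Lpl, the lipase that frees fatty acids from lipoproteins and a known LXR target in macrophages (chr8:68880491-68907448, plus strand, mm10), had 7333 counts in the LPS+LCC-12 library and 1570 in the LPS library. It was 4.82-fold higher, with a log2 ratio of 2.27 (2.19 to 2.35), and 99.5% of all genes past the count minimum had a smaller ratio. In these libraries the summed markers of large peritoneal macrophages were also higher, at 958 CPM with LPS+LCC-12 and 408 CPM with LPS. Those of small peritoneal macrophages were higher too, at 1578 CPM with LPS+LCC-12 and 912 CPM with LPS. Neutrophil markers were lower, at 3514 CPM with LPS+LCC-12 and 9298 CPM with LPS, as were monocyte markers, at 3677 and 5850 CPM. Whether any of these shifts bears on Lpl was not tested. Stard4, a soluble sterol carrier, had 773 counts with LPS+LCC-12 and 625 with LPS, a log2 ratio of 0.35 (0.20 to 0.51).

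The storage genes had ratios below 0, within 2-fold. Plin2 had 32781 counts in the LPS+LCC-12 library and 48574 in the LPS library, a log2 ratio of -0.52 (-0.54 to -0.50). Soat1, which esterifies cholesterol for storage, had 9727 counts with LPS+LCC-12 and 12606 with LPS, a log2 ratio of -0.33 (-0.37 to -0.29). The lysosomal cholesterol exporters differed little, Npc2 with a log2 ratio of -0.16 (-0.20 to -0.12) and Npc1 with 0.06 (-0.00 to 0.11).

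Ch25h, an interferon-induced enzyme of macrophages that makes an oxysterol, had 63 counts in the LPS+LCC-12 library and 86 in the LPS library. The interval of its log2 ratio of -0.40 (-0.90 to 0.08) held 0. In the same libraries 11 of 11 listed interferon-stimulated genes were at least 2-fold lower, against 6.65% of all genes. Their median log2 ratio was -2.23, with a summed level of 460 CPM with LPS+LCC-12 and 1815 CPM with LPS. The highest ratio among those 11 genes was -1.16, for Irf7. The list was chosen with earlier results of these data known, and whether Ch25h moved with its genes was not tested.

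Genes of the same pathways outside the list ranged more widely, from -1.55 for Dgat2 to 4.47 for Cd5l, with a median log2 ratio of 0.38. Of 37 such genes past the count minimum, 2 were at least 2-fold higher, against 4.01% of all genes, and 1 was lower, against 6.65%, so the counts past 2-fold say little about these genes as a group. Of 14 further genes of fatty acid synthesis, Thrsp, Pnpla3 and Fads3 missed the minimum, with ratios below 0 on at most 28 counts. The 11 past it, from Acsl1 at 0.01 (-0.07 to 0.10) upward, all lay above 0, against 52.4% of all genes. Their median was 0.59. Among them Mlxipl, which encodes ChREBP, a glucose-responsive factor of fat synthesis, had 4431 counts with LPS+LCC-12 and 1002 with LPS, 4.56-fold higher (log2 ratio 2.19, 2.09 to 2.29). Acly, which makes cytosolic acetyl-CoA from citrate, had 16467 counts with LPS+LCC-12 and 11256 with LPS, a log2 ratio of 0.59 (0.56 to 0.63). Of 8 further sterol and SREBP genes, 6 lay above 0, against 52.4% of all genes, with a median of 0.21. Mbtps1, a protease that cuts the SREBP precursors, had a log2 ratio of 0.39 (0.32 to 0.45), and Gramd1a, a sterol transfer protein, -0.64 (-0.69 to -0.59).

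Of 18 further genes of LXR signalling and lipid handling, 11 lay above 0, against 52.4% of all genes, and 7 below, against 47.6%. Their median was 0.27, and the split in direction was not far from that of all genes. Cd5l, a known LXR target that is also abundant in large peritoneal macrophages, had 10022 counts with LPS+LCC-12 and 466 with LPS, 22.2-fold higher (log2 ratio 4.47, 4.34 to 4.61). Dgat2, which makes triglyceride for storage, had 748 counts with LPS+LCC-12 and 2270 with LPS, 2.94-fold lower (log2 ratio -1.55, -1.68 to -1.44). Pltp, the phospholipid transfer protein and an LXR target, had 13579 counts with LPS+LCC-12 and 8216 with LPS, a log2 ratio of 0.77 (0.73 to 0.81). Ncor1, a corepressor of nuclear receptors, had a log2 ratio of -0.09 (-0.12 to -0.06).

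**Figure D4:**
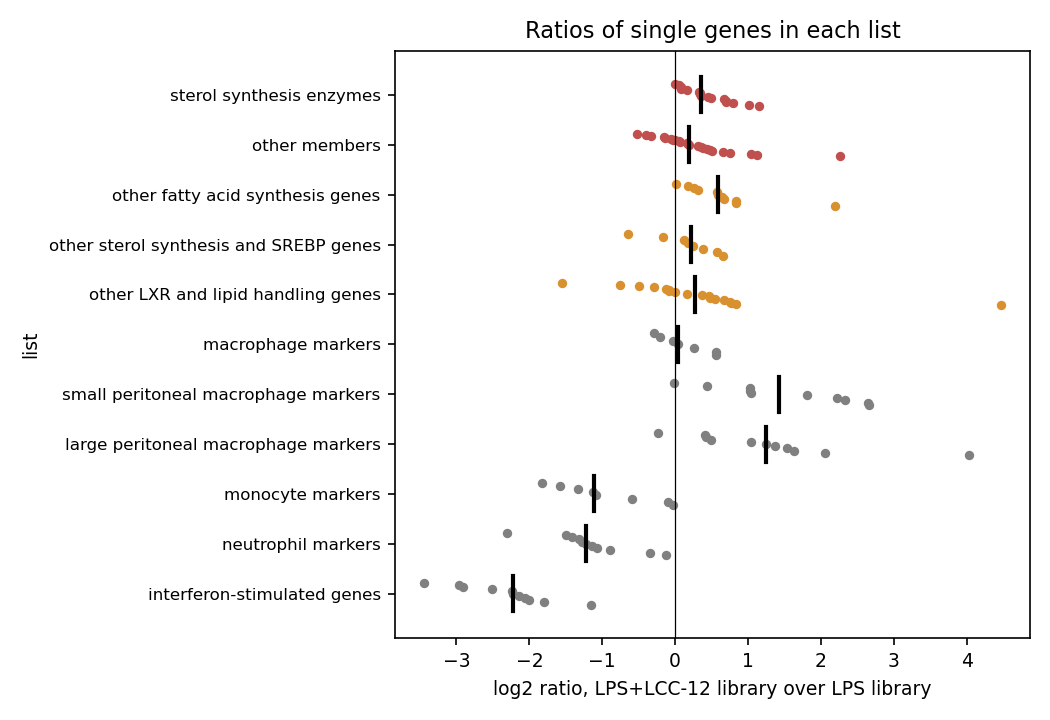
Log2 ratio of LPS+LCC-12 over LPS (x axis) of single genes whose larger count is at least 50, by list (y axis), with black bars for list medians. The members and the other genes of their pathways lie mostly between -1 and 1, the peritoneal macrophage markers mostly above and the neutrophil, monocyte and interferon lists below 0.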

How the data were processed

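RNA of pooled sorted cells was sequenced, 1 library per group. Stranded libraries with ribosomal depletion were made from total RNA, per the labels' protocols. The authors deposited raw whole-number counts per gene without normalization. Per the submitters' processing notes, the aligner was STAR and the build mm10; for the counting tool, its strand setting and its annotation, the sources used here give nothing. IDs were matched to GENCODE M21 on GRCm38 (mm10): 55394 of 55487 matched.

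TMM scaling used edgeR 4.0.16 under R 4.3.3. Before taking logs, 0.5 counts were added, weighted by library size. Intervals are exact binomial (Clopper-Pearson, SciPy 1.17.1), and the ratios and intervals were tested on simulated data. The intervals cover counting error only. PCR copies are not independent molecules, so where counts include them the intervals are too narrow even for that error. The simulated counts were independent draws, so they could not show this. Levels per length used merged GENCODE exons. Promoter letters are from RefSeq. No test could be made with 1 library per group.

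The members, lists and rules were chosen with earlier results of these data known. All members may be named; of the other pathway genes, those past 2-fold and those with the most counts are named. Some genes of the other pathway lists, 4 in number, are not reported here. Alternatives were other scalings (DESeq2 1.42.0 among them), count minimums, added counts, size limits, means and protein-coding genes.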

Additional observations from a re-analysis of the deposited data

How the results depend on the processing

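No paired analysis was possible because each group is 1 library. For the same reason no library could be left out. None of the 5 members past 2-fold changed direction under other scalings, count minimums or added counts. They could hardly have done so, because a scaling shifts all ratios by nearly the same small amount and a count minimum changes no ratio. Abcg1, Acat2, Scap and Scd2, all near 0, changed sign with the scaling. The median of the members ran from 0.30 to 0.40. The count of 5 members at least 2-fold higher became 4 with DESeq2, upper quartile or macrophage-marker scaling, without Sqle, and also 4, in an alternative added once the data had been seen, on leaving out 10 members that overlap other counted genes, Cyp51 among them.

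Other rules for a call changed the counts as follows. At 1.5-fold 11 members and 12 other pathway genes were higher, against 9.67% of all genes, and 3 other pathway genes were lower. At 3-fold 1 member and 2 other pathway genes were higher, and 0 other pathway genes lower. With the whole interval beyond 2-fold 1 member was higher, and 2 other pathway genes were higher and 1 lower. The shares of all genes at least 1.5-fold lower, at 3-fold and with the whole interval beyond 2-fold were not taken, so those counts have no background. With the interval wholly on 1 side of 0, 26 members were higher and 4 lower, and 26 other pathway genes were higher and 8 lower. The shares of all genes under that rule were 36.5% higher and 32.9% lower. With a minimum of 1 count 2 other pathway genes were lower, and the share of all genes at that minimum was not taken. With a minimum of 1 or 10 counts, which admits Fads2, the fatty acid median was 0.44. The median of LXR targets of efflux and membrane lipids was 0.16 with upper quartile scaling and 0.16 relative to macrophage markers. With means in place of medians, the value was 0.39 for the squalene and lanosterol steps, 0.33 for the SREBP genes and 0.18 for uptake, transport and storage, the last with the opposite sign to its median because the mean takes in Lpl. Genes under 50 counts, such as Fads2, are limited by depth.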
